A study of Mus musculus with 6 samples.

Results

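Inflammasomes are protein assemblies in which a sensor of infection or damage, such as NLRP3 or AIM2, recruits the adaptor ASC and activates the protease caspase-1. Caspase-1 matures the cytokines interleukin-1β and interleukin-18 and cuts gasdermin D, whose fragment opens pores in the cell membrane, and NINJ1 then ruptures the membrane in the lytic death called pyroptosis. In macrophages that meet the yeast *Candida albicans*, NLRP3 is the sensor best known for driving interleukin-1β release, and transcription of *Nlrp3* and *Il1b* is raised beforehand by NF-κB signalling. Messenger RNA levels do not show whether an inflammasome assembled or a caspase was active.

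The genes described here are 10 rows of a gene table of 54532 rows, chosen by symbol. They are the sensors *Nlrp3*, *Nlrc4*, *Nlrp1b*, *Aim2* and *Mefv*, the adaptor *Pycard*, the proteases *Casp1* and *Casp4*, the pore former *Gsdmd* and the rupture protein *Ninj1*. RNA was sequenced from primary macrophages of METRNL-/- mice (KO) and METRNL+/+ mice (WT), with 3 libraries per genotype. *Metrnl* encodes the secreted protein meteorin-like. All 6 cultures had met *Candida albicans* for 6 h in vitro and no library without the fungus was analysed here, so the comparison is between genotypes in challenged cells. The labels do not give the allele, the age, the tissue the macrophages came from, or whether replicates were separate animals, so p-values reflect only how these libraries scatter, and that scatter may be technical. The values are FPKM, read fragments per kilobase of gene, so they can be compared between genes per length. They are scaled here by median-of-ratios library factors and not by the read total of each library.

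Of the 10 genes, 9 passed the filter of a mean of 0.5 FPKM over all libraries and *Nlrp1b* did not. *Aim2* was the 1 gene called higher in KO macrophages, by 1.22-fold, and 0 were called lower, at an adjusted p below 0.05 (limma, Benjamini-Hochberg over 11689 genes). At an unadjusted p below 0.05 there were 2, *Aim2* and *Gsdmd*. Over all genes tested, 15.7% were called higher and 12.4% lower in KO, so neither count of these genes was above the background share. Of all calls, 55.9% were higher in KO, against 31.6% when each library was scaled to the same total. The 9 estimates split into 5 higher and 4 lower, with a median log2 fold change of 0.12, beside 0.03 over all genes.

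Facts of the libraries touch the results that follow. Reads in genes numbered 14772746 to 15724897 in KO libraries and 11026529 to 14309247 in WT libraries. Replicate 1 of each genotype stood apart from replicates 2 and 3: the chi-square of reads per degree of freedom was 2.30 between KO 2 and 3 and 7.10 between WT 2 and 3, and 39.6 to 59.4 for the pairs that include replicate 1. *Metrnl* itself was at 51.2, 63.6 and 62.8 FPKM in KO 1 to 3 and at 93.5, 63.2 and 69.8 FPKM in WT 1 to 3 (adjusted p = 0.181, limma), so its level does not check the genotype labels. The 13 macrophage markers summed to 10422 to 11162 FPKM in KO and 5984 to 6954 FPKM in WT, with none at 0. Of them 7 were called higher and 1 lower. These counts were 4 and 1 with quantile normalization, and 1 and 1 with replicate number as a block in the fit. Of 9 tested markers of large peritoneal macrophages, 3 were called higher and 2 lower, and with that block 1 and 2. Their sums were 750 to 799 FPKM in KO and 597 to 669 FPKM in WT. The labelled cell type was thus borne out by its markers in both genotypes. Markers of lymphocytes and other cells were also present and summed to less in KO. All 14 tested B cell markers were called lower, with sums of 32.2 to 41.0 FPKM in KO and 590 to 756 FPKM in WT and none at 0. Neutrophil markers, of which 4 of 14 were called lower, summed to 798 to 1019 FPKM in KO and 1058 to 1442 FPKM in WT, with *Elane* at 0 in WT. The neutrophil count lower was 2 without KO 2 or KO 3 and with replicate number as a block. It was 7 without both replicate 1 libraries, beside 16.3% of all genes. B cell markers thus differed far more between genotypes than neutrophil markers did. Dendritic cell markers, with 6 of 9 called lower and none at 0, summed to 92.7 to 106 FPKM in KO and 194 to 276 FPKM in WT. T and NK cell markers, with 5 of 5 tested called lower, summed to 3.70 to 4.82 FPKM in KO and 12.8 to 15.8 FPKM in WT, with *Klrb1c* at 0 in KO. The remaining lists were low in both genotypes. Mast cell markers, with 4 of 5 called lower, reached at most 3.27 FPKM in KO and 9.17 FPKM in WT, and mesothelial and fibroblast markers, with 4 of 7 called lower, at most 9.26 FPKM in KO and 19.0 FPKM in WT. The mast cell count lower was 2 without KO 3 or WT 3. Retinal markers, listed because the extraction text speaks of retinas, summed to at most 1.40 FPKM in KO and 0.865 FPKM in WT, with *Crx* among the markers at 0 in KO. The markers of these other cell types thus summed to less in KO in each list but the retinal one. A sum can rest on a few high genes, and not every marker in these lists was called. The part of other cell types in the results below was not tested. In bulk RNA, fewer cells of a type and less RNA per cell cannot be told apart.

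On build GRCm38, with the coordinates of the deposited table, *Casp1* (chr9:5298517-5307265) and *Casp4* (chr9:5308828-5336783) are neighbours on the plus strand. *Nlrp3* (chr11:59541568-59566956, plus strand) and *Nlrp1b* (chr11:71153102-71230733, minus strand) share a chromosome but lie far apart. *Aim2* lies at chr1:173350879-173466040, *Gsdmd* at chr15:75862327-75867408 and *Ninj1* at chr13:49187485-49196244, each on the plus strand. *Nlrc4* (chr17:74425438-74459142), *Mefv* (chr16:3707218-3718097) and *Pycard* (chr7:127989708-127993867) lie on the minus strand. All 10 are annotated as protein-coding, with the same start and end in GENCODE M21.

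Promoter sequence is shown for *Aim2* and *Casp4* because these are the members whose promoter held letters of an NF-κB site, while their levels by library were unlike, as described below. Of the 10 genes, 9 had at least 1 promoter in the RefSeq table (build GRCm38.p6), 12 promoters in all, and the 250 bases before each start were searched on both strands. The first line is chr1:173420420-173420528 on the plus strand, 184 to 76 bases before the RefSeq start of *Aim2* and in no annotated exon of it. It lies inside the deposited *Aim2* row, which begins upstream at chr1:173350879, so this RefSeq start is not the start of that row. Capitals mark a κB motif (GGGANNTTC) and a PU.1 motif (GAGGAAGT). The second is chr9:5308727-5308827 on the plus strand, upstream of *Casp4*; capitals mark matches to a second κB form (GGGANTTCC), the right-hand one on the opposite strand.
Aim2: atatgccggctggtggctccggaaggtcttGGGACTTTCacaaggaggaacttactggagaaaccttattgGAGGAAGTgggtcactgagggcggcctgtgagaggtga
Casp4: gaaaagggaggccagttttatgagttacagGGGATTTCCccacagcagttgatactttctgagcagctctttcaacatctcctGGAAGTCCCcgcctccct

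GGGANNTTC was in 3.23% of 32851 mouse promoters of that length and among these genes in that of *Aim2*. GGGANTTCC, added after the promoters had been seen, was in 1.43% of promoters and among these genes in that of *Casp4*, with both matches in the stretch shown. The PU.1 letters GAGGAAGT, the motif of a myeloid transcription factor, were in 2.44% of promoters and in those of *Aim2*, *Nlrp1b* and *Pycard*. The interferon response motif GAAANNGAA (7.13% of promoters), the STAT motif TTCNNNGAA (7.02%) and the AP-1 motif TGANTCA (6.75%) were in none of the 9 genes' windows. A match is a run of letters and not a measured binding site.

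*Nlrp3*, the sensor of membrane damage and potassium loss, had the highest level of the 10 genes, and 1.28% of tested genes lay above it. Its level was 453, 282 and 280 FPKM in KO replicates 1 to 3, against 208, 260 and 366 FPKM in WT replicates 1 to 3. KO 1 was the highest of the 6 libraries and WT 1 the lowest, and the groups overlapped. The log2 fold change was 0.28 ± 0.27 (SE; 95% confidence interval −0.37 to 0.93; adjusted p = 0.479, limma), a value that lies within the spread of replicates. The estimate was −0.14 without both replicate 1 libraries (adjusted p = 0.575), so its direction rests on them.

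*Aim2*, the sensor of double-stranded DNA in the cytosol, was at 16.5, 17.3 and 18.8 FPKM in KO libraries, against 15.1, 13.6 and 14.6 FPKM in WT libraries. All KO values lay above all WT values, as they did for 25.7% of all genes tested. The means were 17.6 ± 1.15 FPKM in KO and 14.4 ± 0.744 FPKM in WT (SD, n = 3 each), a log2 fold change of 0.27 ± 0.07 (SE; interval 0.09 to 0.45) with an adjusted p of 0.0416 in limma. Without both replicate 1 libraries it was 0.34 (adjusted p = 0.0261, limma). KO 1 was the lowest KO library and WT 1 the highest WT library, so leaving them out raises the estimate by construction. The estimate was positive in all 17 alternatives, but the call was kept in 7 of them, with adjusted p-values from 0.0114 to 0.452. Leaving out any 1 library other than KO replicate 1 ended it: the adjusted p was 0.112 without KO 2, 0.142 without KO 3, 0.0528 without WT 1, 0.107 without WT 2 and 0.103 without WT 3. It was also lost with each library at the same total, where the log2 fold change was 0.19 (adjusted p = 0.452), and with quantile normalization, where it was 0.16 (adjusted p = 0.200).

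*Nlrc4*, the sensor that NAIP proteins activate when they bind bacterial flagellin or secretion system parts, was at 9.21, 7.54 and 8.01 FPKM in KO libraries, against 7.42, 6.82 and 8.23 FPKM in WT libraries. The groups overlapped, and the log2 fold change of 0.12 ± 0.10 (SE; interval −0.11 to 0.36) was not called (adjusted p = 0.398, limma). *Mefv*, which encodes pyrin, a sensor of bacterial toxins that disturb the actin cytoskeleton's regulators, was at 4.40, 2.86 and 2.73 FPKM in KO libraries, against 3.57, 5.12 and 5.21 FPKM in WT libraries. Here KO 1 and WT 1 each lay away from the other libraries of their genotype and toward the other group. Leaving both out therefore lowers the estimate by construction. The log2 fold change of *Mefv* was −0.39 ± 0.19 (SE; interval −0.84 to 0.06; adjusted p = 0.174, limma) in all libraries and −0.70 without both replicate 1 libraries (adjusted p = 0.0047), and it was also called with array weights (−0.59; adjusted p = 0.0143). *Nlrp1b*, a sensor that anthrax lethal factor cleaves in some mouse strains, was barely detected, with 7, 10 and 4 reads in KO libraries against 8, 2 and 4 reads in WT libraries. Its level was at most 0.10049 FPKM in KO and 0.0791 FPKM in WT, so a difference was not detectable at this depth.

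*Pycard* encodes ASC, the adaptor that joins several of these sensors to caspase-1. It was at 1.502, 2.001 and 2.63 FPKM in KO libraries, against 1.76, 1.27 and 1.47 FPKM in WT libraries. The lowest KO value lay within the WT range, and the log2 fold change of 0.27 ± 0.15 (SE; interval −0.10 to 0.64) was not called (adjusted p = 0.240, limma). Without both replicate 1 libraries it was 0.48 (adjusted p = 0.0516). The *Pycard* exons share 485 bases with the antisense gene *Gm45205*, which had at most 2 reads in any library; whether counting used strand is not given in the sources used here, so reads of this pair cannot be told apart by strand.

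*Casp1*, the inflammatory caspase of the canonical inflammasome, was at 19.5, 13.2 and 12.2 FPKM in KO libraries, against 16.8, 20.3 and 21.03 FPKM in WT libraries. *Casp4*, the mouse gene of caspase-11, which binds cytosolic lipopolysaccharide, was at 27.7, 16.9 and 17.0 FPKM in KO libraries, against 16.4, 27.0 and 25.7 FPKM in WT libraries. In both genes KO 1 was the highest KO library and WT 1 the lowest WT library, and the groups overlapped. Leaving out those libraries lowers both estimates by construction. For *Casp4*, KO lay above WT between the replicate 1 libraries and below it between all others: KO 1 was 1.63 times the mean of KO 2 and 3, and WT 1 was 0.624 times the mean of WT 2 and 3. In all libraries neither gene was called, with log2 fold changes of −0.37 ± 0.18 for *Casp1* (SE; interval −0.81 to 0.06; adjusted p = 0.174, limma) and −0.16 ± 0.25 for *Casp4* (SE; interval −0.78 to 0.45; adjusted p = 0.671, limma). Without both replicate 1 libraries *Casp1* was 1.62-fold lower in KO (log2 fold change −0.66; adjusted p = 0.0041, limma) and *Casp4* 1.55-fold lower (−0.61; adjusted p = 0.0034, limma). *Casp1* was also called lower without KO replicate 1 alone (adjusted p = 0.0224) and, with all 6 libraries, at the same total in each library (log2 fold change −0.45; adjusted p = 0.0456) and with array weights (−0.58; adjusted p = 0.0134).

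*Gsdmd*, the pore former that both caspases cut, was at 25.1, 23.5 and 23.6 FPKM in KO libraries, against 29.99, 28.0 and 26.8 FPKM in WT libraries. All KO values lay below all WT values, as they did for 19.9% of genes tested, and the WT mean was 1.17 times the KO mean. The log2 fold change of −0.22 ± 0.07 (SE; interval −0.39 to −0.06) did not pass the threshold (adjusted p = 0.0556, limma), although it was negative in all 17 alternatives and called in 4 of them, with adjusted p-values from 0.0128 to 0.171. *Ninj1* was at 183, 174 and 187 FPKM in KO libraries, against 185, 142 and 160 FPKM in WT libraries. WT 1 lay within the KO range, so the groups overlapped, and the log2 fold change of 0.17 ± 0.11 (SE; interval −0.10 to 0.43) was not called (adjusted p = 0.308, limma).

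**Figure D1:**
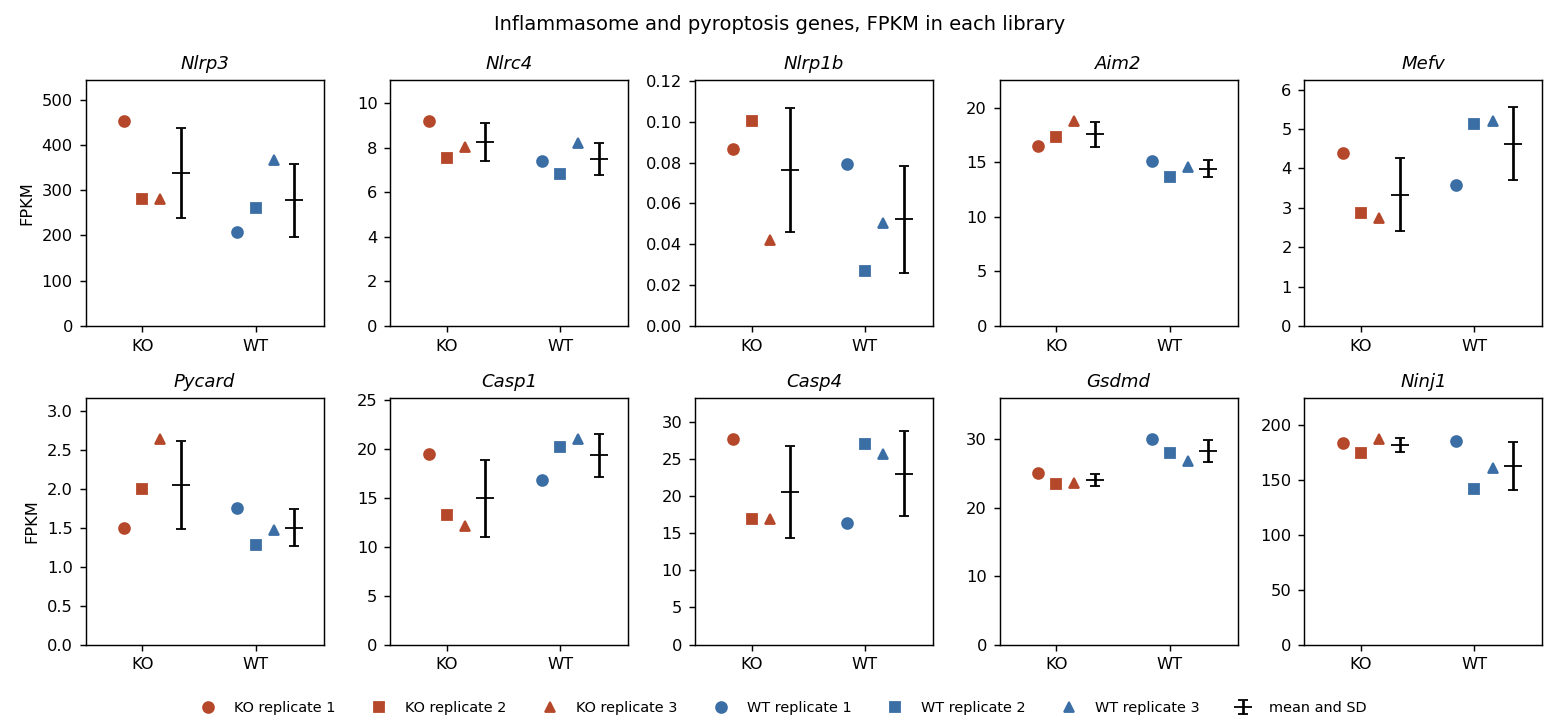
FPKM of each of the 10 genes in every library, with KO libraries left and WT libraries right in each panel; symbols give the replicate and black bars the mean and SD of 3 libraries. The groups do not overlap for *Aim2* and *Gsdmd*; for *Nlrp3*, *Casp1*, *Casp4* and *Mefv*, KO 1 lies above KO 2 and 3 and WT 1 below WT 2 and 3.

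By level, the KO order was *Nlrp3*, *Ninj1*, *Gsdmd*, *Casp4*, *Aim2*, *Casp1*, *Nlrc4*, *Mefv*, *Pycard* and *Nlrp1b*. The neighbours from *Gsdmd* to *Casp1* overlapped in their library values in KO, and so did those from *Gsdmd* to *Casp1* in WT, where *Aim2* came after *Casp1*. The genes upstream and downstream of *Casp1* thus spanned a wide range, with *Nlrp3* at a mean of 338 FPKM in KO and 278 FPKM in WT and *Pycard* at 2.05 FPKM in KO and 1.501 FPKM in WT. Levels per length depend on the length used. The deposited length of *Casp4*, 3710 bases, is 2.59 times its longest principal transcript, and its mean would be 53.1 FPKM in KO and 59.6 FPKM in WT with the shorter length; *Pycard* was counted over 3800 bases.

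Without both replicate 1 libraries, an alternative with 2 libraries per genotype, 1 of the 9 genes was called higher (*Aim2*) and 4 were called lower in KO (*Casp4*, *Casp1*, *Mefv* and *Gsdmd*). Over all genes the shares called in that fit were 19.3% higher and 16.3% lower. For *Nlrp3*, *Casp1*, *Casp4* and *Mefv* it leaves out the highest KO and the lowest WT library, which lowers their estimates by construction. For *Aim2* and *Pycard* it leaves out the lowest KO and the highest WT library, which raises theirs. The calls of these genes in that fit are thus not a separate result. The labels name no batch that replicate 1 would mark, so this setting describes how far the values rest on those 2 libraries and does not replace the fit of all 6. *Nlrc4* and *Nlrp3* had intervals that cover 0 in both fits. Those of *Pycard* (0.12 to 0.83) and *Ninj1* (0.04 to 0.48) lay above 0 without both replicate 1 libraries. Neither of these was called there (adjusted p = 0.0516 and 0.0743, limma).

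**Figure D2:**
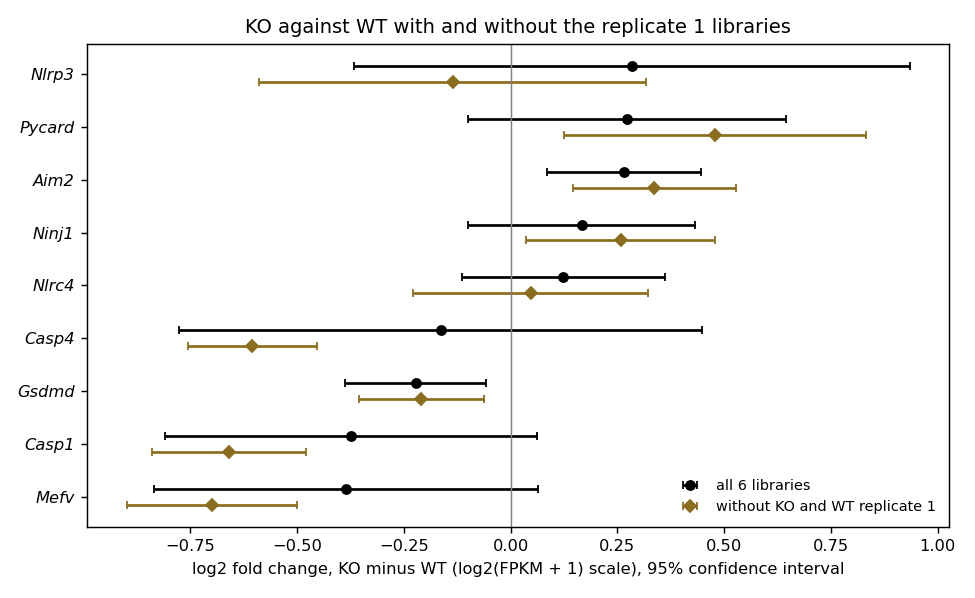
Log2 fold change, KO minus WT, with its 95% confidence interval for the 9 tested genes, from all 6 libraries (black circles) and without KO and WT replicate 1 (brown diamonds). For *Casp4*, *Casp1* and *Mefv* the brown interval lies below 0 while the black one crosses it. For *Pycard* and *Ninj1* the brown interval lies above 0 while the black one crosses it. Both intervals lie above 0 for *Aim2* and below 0 for *Gsdmd*.

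The pattern of replicate 1 was shared with genes that inflammatory signalling induces. KO 1 was the highest KO library and WT 1 the lowest WT library for *Nlrp3*, *Casp1*, *Casp4* and *Mefv*, 4 of the 9 genes, beside 21.9% of all genes tested. The same held for 16 of 16 NF-κB targets, such as *Tnf*, *Cxcl2* and *Nfkbia*, and for 17 of 18 interferon-inducible genes. These lists were chosen with earlier results of these data known, and the pattern rests on 1 library of each genotype. *Aim2* and *Pycard* had the reverse pattern, as had 22.2% of all genes. The median NF-κB target was at 131%, 63.2% and 61.6% of its WT mean in KO 1 to 3 and at 63.7%, 116% and 121% in WT 1 to 3. None of the 16 NF-κB targets was called in either direction in all libraries. Without both replicate 1 libraries 15 were called lower in KO, beside 16.3% of all genes. Leaving out the highest KO and the lowest WT library lowers each estimate by construction, so this count is not a separate result.

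**Figure D3:**
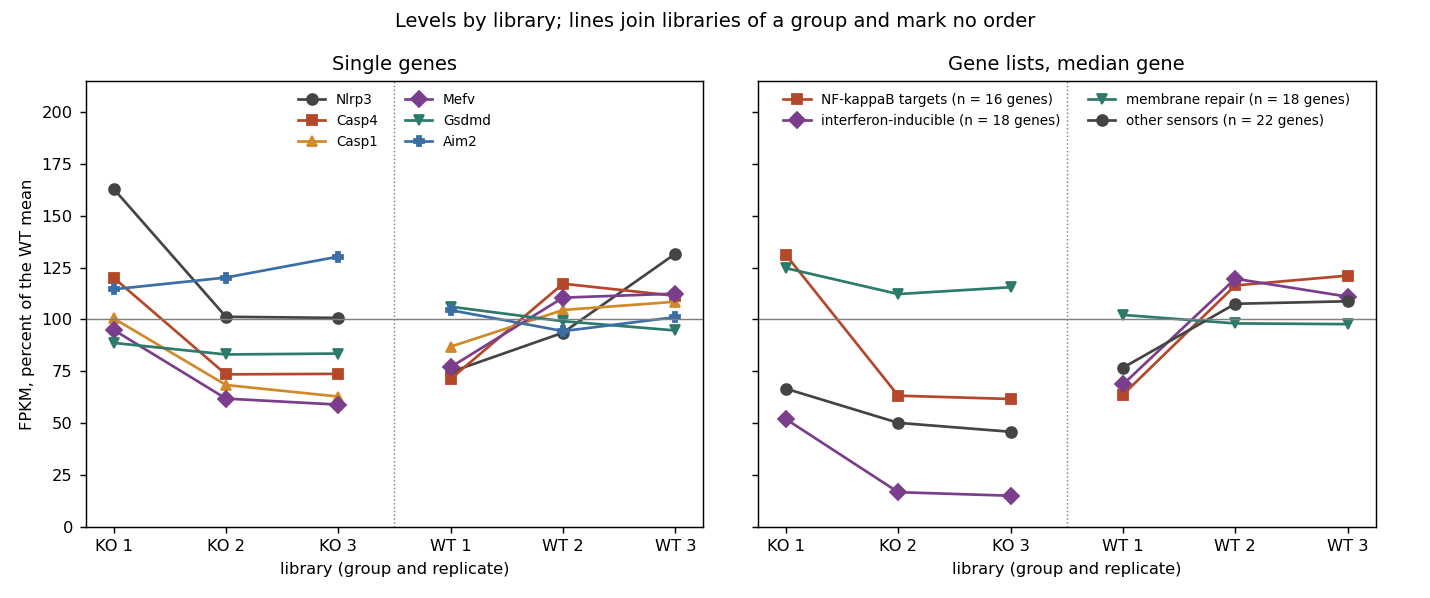
FPKM as a percentage of the WT mean in each library, with KO libraries left of WT libraries, for 6 of the genes (left panel) and for the median gene of 4 lists (right panel). *Nlrp3*, *Casp4*, *Casp1*, *Mefv* and the NF-κB targets are higher in KO 1 than in KO 2 and 3. They are lower in WT 1 than in WT 2 and 3, while *Aim2* and *Gsdmd* separate by genotype.

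The cytokines that caspase-1 processes showed no change that passed the test in all libraries. *Il1b*, which encodes the interleukin-1β precursor, was at 4647, 1291 and 1199 FPKM in KO libraries, against 1056, 2684 and 3293 FPKM in WT libraries. KO 1 was the highest and WT 1 the lowest of all. The log2 fold change of *Il1b* was −0.12 ± 0.65 (SE, adjusted p = 0.906, limma) in all libraries. It was −1.26 without both replicate 1 libraries (adjusted p = 0.0039, limma), and leaving them out lowers it by construction. *Il18*, which encodes the interleukin-18 precursor, averaged 1.45 ± 0.164 FPKM in KO and 1.93 ± 0.673 FPKM in WT (SD, n = 3 each; adjusted p = 0.399, limma). *Il18bp*, the secreted decoy that binds interleukin-18, was the 1 of 6 tested cytokine and antagonist genes called: it fell to 3.10 ± 0.367 FPKM in KO, against 5.67 ± 0.469 FPKM in WT (SD, n = 3 each), 1.83-fold lower (adjusted p = 0.0042, limma). Without both replicate 1 libraries 4 of these 6 genes were called lower and 0 higher, beside 16.3% and 19.3% of all genes.

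Among 22 other tested sensors, 2 were called higher and 8 lower in KO, with a median log2 fold change of −0.66 beside 0.03 over all genes; without both replicate 1 libraries the counts were 3 and 15. The counts moved to 0 higher and 12 lower with each library at the same total and to 0 higher and 5 lower with no filter. They were 0 higher and 3 lower without KO 2, KO 3 or WT 3, and 0 higher and 4 lower without WT 2. With replicate number as a block in the fit they were 0 higher and 1 lower. Over all genes 15.7% were called higher and 12.4% lower in the fit of all libraries. Without both replicate 1 libraries those shares were 19.3% and 16.3%. *Zbp1*, a sensor of Z-form nucleic acids that can trigger inflammasomes and necroptosis, averaged 3.10 ± 2.07 FPKM in KO and 13.6 ± 3.39 FPKM in WT (SD, n = 3 each), 4.39-fold lower (adjusted p = 0.0111, limma), and 8.17-fold lower without both replicate 1 libraries. *Ifi209*, a relative of *Aim2* in the same family of interferon-inducible genes, was 4.45-fold lower in KO (adjusted p = 0.0141, limma). Its call was lost on leaving out KO 2, KO 3, WT 2 or WT 3, at adjusted p-values of 0.0542, 0.0525, 0.0522 and 0.0545. *Tmem173*, which encodes the DNA-pathway adaptor STING, fell to 2.501 ± 0.225 FPKM in KO, against 5.33 ± 0.533 FPKM in WT (SD, n = 3 each; adjusted p = 0.0018, limma). *Nod1*, a sensor of bacterial cell wall fragments, was 2.12-fold lower (adjusted p = 0.0119, limma). The 2 sensors that rose were *Naip2*, by 1.19-fold (adjusted p = 0.0348, limma), and *Naip1*, by 1.90-fold (adjusted p = 0.0481, limma), both partners of NLRC4; with each library at the same total the adjusted p was 0.427 for *Naip2* and 0.153 for *Naip1*. Both calls were also lost with no filter and on leaving out KO 2, KO 3, WT 2 or WT 3, and that of *Naip2* without KO 1, with quantile normalization and with eBayes without the trend as well. *Naip5*, the flagellin partner, averaged 2.91 FPKM in KO and 2.78 FPKM in WT (adjusted p = 0.726); these 3 *Naip* genes were picked after their values had been seen.

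The interferon-inducible genes, several of which encode proteins that expose bacterial ligands to these sensors, had 13 of 18 called lower in KO and 0 higher, with a median log2 fold change of −1.48; 18 were called lower without both replicate 1 libraries. Over all genes 12.4% were called lower in the fit of all libraries and 16.3% without both replicate 1 libraries. In 17 of these 18 genes KO 1 was the highest KO library and WT 1 the lowest WT library. Leaving those libraries out lowers such estimates by construction, so the count of 18 is not a separate result. The interferon-inducible count lower was 4 without KO 2, KO 3 or WT 3, 5 without WT 2, and 8 with no filter. It was 1 with replicate number as a block in the fit. *Gbp2*, a guanylate-binding protein, averaged 9.24 ± 4.04 FPKM in KO and 45.0 ± 5.21 FPKM in WT (SD, n = 3 each), 4.87-fold lower (adjusted p = 0.0024, limma). *Gm12250*, an immunity-related GTPase also called Irgb10, was 6.33-fold lower (adjusted p = 0.0075), *Ifit3* 9.69-fold lower (adjusted p = 0.0104) and *Rsad2* 3.93-fold lower (adjusted p = 0.0102). The antiviral genes *Ifit3* and *Rsad2* are known as targets of type I interferon, and each of these 4 genes was lower in every KO library than in any WT library.

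Of 41 tested regulators of NLRP3 and pyrin, 7 were called higher and 9 lower in KO, beside 15.7% and 12.4% of all genes. Their median log2 fold change was 0.07. Without both replicate 1 libraries the counts were 9 and 12, beside 19.3% and 16.3% of all genes. The counts were 7 and 5 without KO 3, and 7 and 6 without KO 2, without WT 3 or with no filter. They were 4 and 4 with replicate number as a block in the fit. *P2rx7*, the ATP-gated channel whose opening lets potassium out and triggers NLRP3, was at 25.7, 25.4 and 25.9 FPKM in KO libraries, against 14.2, 15.5 and 13.7 FPKM in WT libraries. The groups were far apart relative to their spread, and the rise was 1.77-fold (log2 fold change 0.79; adjusted p = 7.6e-04, limma). It was called in all 17 alternatives, as were *Txnip*, *Ptpn22* and *Serpinb9*. *Txnip*, a thioredoxin-binding protein reported to bind NLRP3, rose to 14.1 ± 1.97 FPKM in KO, against 6.03 ± 0.328 FPKM in WT (SD, n = 3 each), 2.34-fold (adjusted p = 0.0014, limma). *Ptpn22*, a phosphatase that acts on NLRP3, fell 3.74-fold (adjusted p = 9.8e-04), and *Serpinb9*, a granzyme B inhibitor, fell 3.02-fold (adjusted p = 0.0014, limma). Both are also expressed by lymphocytes, whose markers were lower in KO. *Nek7*, the kinase that NLRP3 needs to assemble, was picked after its values had been seen and averaged 4.08 FPKM in KO and 3.73 FPKM in WT (adjusted p = 0.607).

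Genes of other death routes were lower where they were called. Of 15 tested caspase, gasdermin and lytic death genes 5 fell and 0 rose, beside 12.4% and 15.7% of all genes. Their median log2 fold change was −0.14. Without both replicate 1 libraries 7 were called lower and 1 higher, beside 16.3% and 19.3% of all genes. *Mlkl* and *Birc2* were called in all 17 alternatives. *Mlkl*, the pore protein of necroptosis, fell to 8.86 ± 1.40 FPKM in KO, against 17.2 ± 1.38 FPKM in WT (SD, n = 3 each), 1.95-fold lower (adjusted p = 0.0039, limma). *Birc2*, an inhibitor of apoptosis, was 3.01-fold lower (adjusted p = 0.0029, limma), and *Casp2* 2.43-fold lower (adjusted p = 0.0091, limma). Picked after their values had been seen, *Casp8* was 1.24-fold lower (adjusted p = 0.0261, limma), and *Ripk3*, the kinase that activates MLKL, averaged 38.4 FPKM in KO and 36.0 FPKM in WT (adjusted p = 0.387). The *Casp8* call was lost with each library at the same total (adjusted p = 0.0885) and on leaving out any 1 library other than KO 1, at adjusted p-values from 0.0519 to 0.0979.

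Membrane repair genes, whose ESCRT proteins remove membrane pierced by gasdermin pores, had 7 of 18 tested called higher in KO and 0 lower. Over all genes those shares were 15.7% and 12.4%. Without both replicate 1 libraries the counts were 6 and 1, beside 19.3% and 16.3% of all genes. The median log2 fold change in all libraries was 0.23. With each library at the same total 1 was called higher and 0 lower, so this count depends on the scaling. The count higher was 3 without KO 2, KO 3 or WT 3, 2 without WT 2 and 4 with no filter. It was 1 with replicate number as a block in the fit. *Pdcd6*, the calcium sensor that recruits ESCRT, rose to 22.8 ± 0.348 FPKM in KO, against 16.3 ± 1.09 FPKM in WT (SD, n = 3 each), 1.40-fold (adjusted p = 0.0051, limma; 0.101 with each library at the same total). The ESCRT-III subunits *Chmp3*, *Chmp2b* and *Chmp1b* were 1.46-fold, 1.37-fold and 1.35-fold higher (adjusted p = 0.0156, 0.0199 and 0.0095, limma); at the same total in each library the adjusted p was 0.122, 0.0426 and 0.194. The call of *Chmp2b* was lost with quantile normalization (adjusted p = 0.0536) and without KO 2 (0.0527), KO 3 (0.0574) or WT 2 (0.0642), and that of *Chmp3* without WT 2 (0.0503) or WT 3 (0.0519). Macrophage markers also summed to more in KO, as given above, and their part in these values was not tested.

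**Figure D4:**
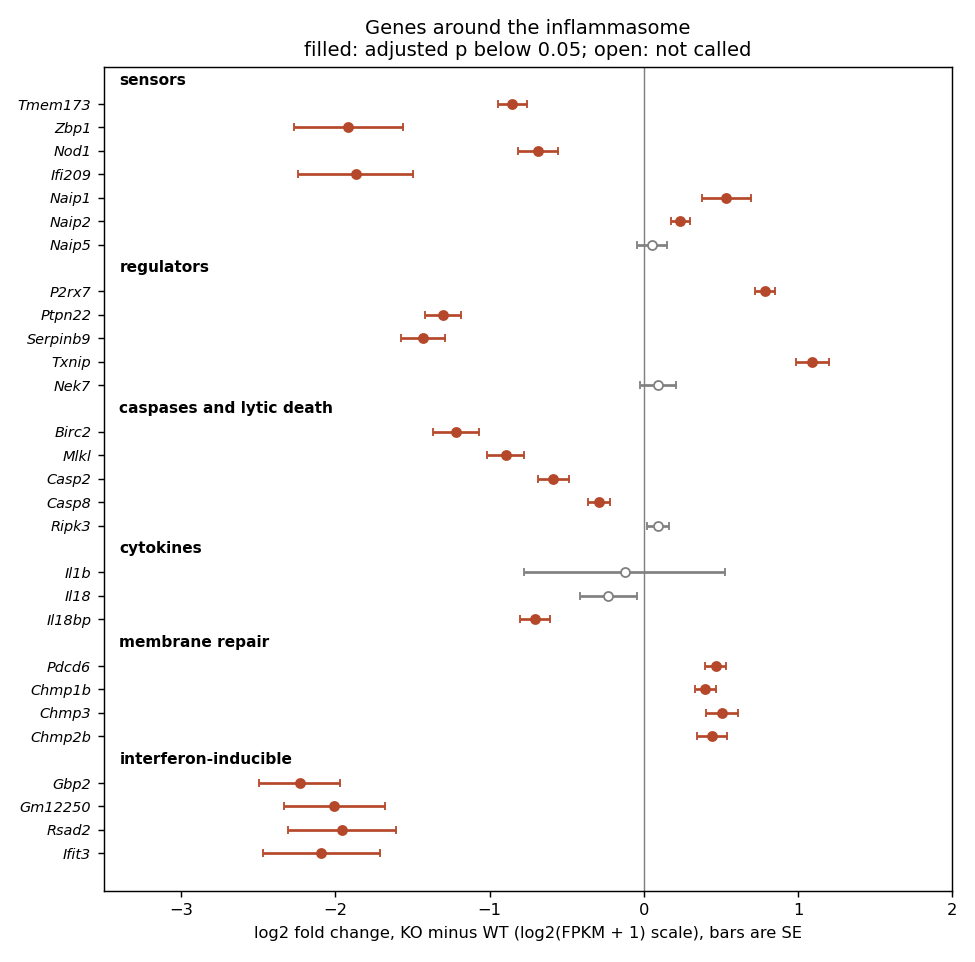
Log2 fold change, KO minus WT, with its SE for genes around the inflammasome, grouped by role; filled points passed an adjusted p below 0.05 and open points did not. *Zbp1*, *Ifi209*, *Tmem173*, *Mlkl* and the interferon-inducible genes lie left of 0, while *P2rx7*, *Txnip* and the membrane repair genes lie right of it. Each of those 4 repair genes loses its call in at least 1 alternative. So do *Zbp1*, *Ifi209*, *Nod1*, *Naip1*, *Naip2*, *Casp8*, *Gm12250*, *Rsad2* and *Ifit3*. *Naip1*, *Naip2*, *Naip5*, *Nek7*, *Casp8* and *Ripk3* were chosen after their values had been seen.

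For the 2 members with the smallest p, the tested genes with the most similar profile over the 6 libraries were found by Euclidean distance of centred log2(FPKM + 1). For *Aim2* these were *Pcdh7*, *Fzr1* and *Larp4b*, at distances of 0.03, 0.05 and 0.06. For *Gsdmd* they included *Thrap3* and *Galnt6os*, at distances of 0.08 and 0.09. *Fzr1* was at 5.97, 6.44 and 6.75 FPKM in KO libraries, against 5.45, 4.94 and 5.11 FPKM in WT libraries, with KO 3 the highest and WT 2 the lowest, as for *Aim2*.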

How the data were processed

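The authors deposited 1 table of FPKM values per gene, with coordinates and gene lengths, for 3 KO and 3 WT libraries. Per the submitters' processing notes the reads were placed on mouse build GRCm38, also called mm10. The sources used here do not name the aligner, the annotation release, the tool that counted reads or its strand setting. Per the labels' protocols, Trizol was used for RNA and an Illumina TruSeq kit for libraries; that protocol names retinas as its tissue, and every other label names macrophages. In each library the product of FPKM and gene length came in whole steps (100% of values, to within 0.05 of a step), and the steps are the reads given. The deposited FPKM carry median-of-ratios library factors, so their sums differ between libraries. Reads in genes were 11026529 to 15724897 per library.

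FPKM is not a count, so log2(FPKM + 1) was tested in limma 3.58.1 (R 4.3.3) with genotype as the term, eBayes with a trend, and Benjamini-Hochberg adjustment over 11689 genes whose mean reached 0.5 FPKM. A log2 fold change is KO minus WT on that scale, which understates changes of low genes, and folds are ratios of mean FPKM. The script was tested on simulated data. The 10 genes and the lists were chosen with earlier results of these data known. From each list, every called gene was named where 4 or fewer were called, otherwise the 4 with the smallest p, and *Il1b* and *Il18* always; marker lists are given as counts and sums. Some genes that these rules take are not reported here. There were 17 alternatives. Annotation was GENCODE M21; promoters came from RefSeq.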

Additional observations from a re-analysis of the deposited data

How the results depend on the processing

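Against 1 gene called higher in KO, 0 were called higher with no filter, with each library at the same total, with quantile normalization, with eBayes without the trend and with the replicate block, and 0 to 1 when 1 library was left out. Against 0 called lower, 1 was called lower under a filter of 2 FPKM, at the same total and with quantile normalization, 3 with array weights, 4 without both replicate 1 libraries, and 0 to 1 when 1 library was left out. The estimate of *Nlrp3* reversed to −0.080 with array weights and −0.14 without both replicate 1 libraries, and that of *Ninj1* to −0.0077 with quantile normalization. The cause was not tested. *Nlrc4* and *Pycard* kept their direction and were not called in any alternative that could be fitted.

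Over all genes, 1833 were called higher and 1445 lower; the counts were 543 and 1173 at the same total, 479 and 604 with the replicate block, 1237 higher with no filter, 876 lower under a filter of 2 FPKM, 2719 and 2152 with array weights, and 912 to 1681 higher and 851 to 1337 lower with 1 library left out. The median log2 fold change of all genes was 0.03, and −0.03 at the same total. Deviations of same-numbered KO and WT libraries from their group means correlated at −0.50, −0.19 and −0.16. These values cannot tell whether same-numbered samples were paired, because replicate 1 stood apart in both genotypes. The labels name no pairing. With the replicate block 1 of the interferon-inducible genes and 1 of the other sensors was called lower, 1 membrane repair gene higher, and 4 regulators in each direction, and among others *Zbp1*, *Nod1*, *Ifi209*, *Gm12250*, *Rsad2* and *Ifit3* were not called. Depth limits *Nlrp1b*, with 21 reads in KO and 14 in WT. With 3 libraries per genotype, intervals of *Nlrp3* and *Casp4* were wide.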
